A study of Mustela putorius furo with 8 samples.

Results

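Epithelia guard their surfaces with secreted proteins that starve, block or bind microbes. WFDC2 is a small secreted protein with whey acidic protein (WAP) domains, the fold of several protease inhibitors, and it is made by airway and duct linings. LTF, lactoferrin, binds iron and is found in milk, tears and mucosal fluids as well as in neutrophil granules. PIGR, the polymeric immunoglobulin receptor, carries dimeric IgA and pentameric IgM across epithelial cells and is cleaved to leave secretory component in the lumen. SLPI is another WAP domain protein, which inhibits neutrophil elastase, and LCN2 captures bacterial siderophores.

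These 5 secreted antimicrobial defence genes were looked up by symbol in the 27912 genes counted in ferret pancreatic ductal epithelial (PDE) cultures, and 3 of the 5 could be analysed, namely WFDC2, LTF and PIGR. SLPI was absent from the symbols. LCN2 was listed and had 0 unique molecular identifiers (UMIs) among the 642061968 UMIs of the retained cells, a count that allows a level of up to 0.00467 CPM, the UMIs of a gene per 1000000 UMIs, over all libraries, and it also had 0 in every other barcode. Whether these reads would be counted under another symbol is not known from the files, so the limit is one for this symbol in these tables and not for expression of LCN2 or SLPI. WFDC2 had 1327716 UMIs, LTF 25787 and PIGR 4956.

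Duct cells came from newborn ferrets, either WT or CFTR KO/KO (CF). The study passaged them repeatedly, pooled donors of each genotype, between which PDX1 differed strongly, and polarized them at an air-liquid interface (ALI) before droplet sequencing, with dead cells removed. There were 8 libraries, WT and CF at day 2, 5, 7 and 9, with 1 library for each genotype and day, so no difference below has a replicate check and no p-value is given. Intervals are exact 95% intervals and cover counting error only, not the spread between cultures or animals.

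The libraries held 1607 to 6224 retained cells and 34735952 to 114585136 UMIs, with 14949 to 23427 UMIs in the median cell, and any 2 libraries shared 1 to 14 cell barcodes. At day 7, 411 of the 1607 CF cells had fewer than 3000 UMIs. CFTR, the targeted gene, was at 6.57, 16.9, 15.9 and 29.5 CPM in WT and at 2.50, 8.69, 11.1 and 11.4 CPM in CF at day 2, 5, 7 and 9. The study describes homozygous KO ferrets as without CFTR mRNA or protein, whereas UMIs of the gene were counted in every CF library. Reads of a disrupted gene can still be counted, so these levels do not check the labels by themselves. The source of these UMIs was not tested. SOX2, a foregut transcription factor, was at 68.5 to 115 CPM in WT and at most 0.0864 CPM in CF. The duct keratin KRT19 was at 3772 to 5113 CPM in every library. The acinar list summed to at most 0.330 CPM over the 6 of its 12 genes that were measured, some of them transcription factors. The enzyme genes AMY2B, CPA1, PNLIP, CELA3B, CTRB1 and CTRC were absent from the symbols. These values do not check the deposited acinar and centroacinar class names, which are used here only as labels.

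WFDC2 was the most abundant of the 3 genes in WT and was far lower in CF on every day. Its level in WT was 128 CPM at day 2, 1629 at day 5, 1532 at day 7 and 11815 at day 9, where it ranked 8th of all genes. In CF it was 0.469 CPM at day 2, 34.8 at day 5, 95.3 at day 7 and 271 at day 9. The WT level exceeded the CF level 273-fold at day 2 (206 to 371), 46.9-fold at day 5 (45.1 to 48.8), 16.1-fold at day 7 (15.5 to 16.6) and 43.6-fold at day 9 (42.9 to 44.4). Every CF library but that of day 9 lay below the lowest WT library. In CF the gene rose over the culture as well, by 7.53 on the log2(CPM + 1) scale from day 2 to day 9 against 6.52 in WT.

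LTF showed the opposite order until day 9. It was nearly absent from WT at day 2, with 2 UMIs or 0.0175 CPM, and then stood at 4.54 CPM at day 5, 11.5 at day 7 and 116 at day 9. In CF it was at 2.65 CPM at day 2, 61.8 at day 5, 122 at day 7 and 112 at day 9. CF exceeded WT 13.6-fold at day 5 (12.4 to 15.0) and 10.7-fold at day 7 (9.95 to 11.5). At day 2 the ratio was 152, with an interval of 41.6 to 1259 that reflects the 2 WT UMIs. At day 9 CF held 0.960 times the WT level (0.929 to 0.992). CF thus held at day 5 a level that WT passed only between day 7 and day 9, and from day 7 to day 9 LTF fell by 0.13 on the log2 scale in CF while it rose by 3.24 in WT.

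PIGR was lower in CF on every day and was the least abundant of the 3 in CF, and in WT at day 9. Its WT levels were 0.305, 4.69, 12.6 and 36.6 CPM at day 2, 5, 7 and 9. In CF they were 0.0391, 1.44, 1.58 and 2.84 CPM, which rest on 4, 103, 55 and 142 UMIs. The WT excess widened from 3.26-fold at day 5 (2.63 to 4.07) to 7.93-fold at day 7 (6.05 to 10.6) and 12.9-fold at day 9 (10.9 to 15.3). At day 2 it was 7.81-fold with an interval of 2.79 to 30.3.

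**Figure D1:**
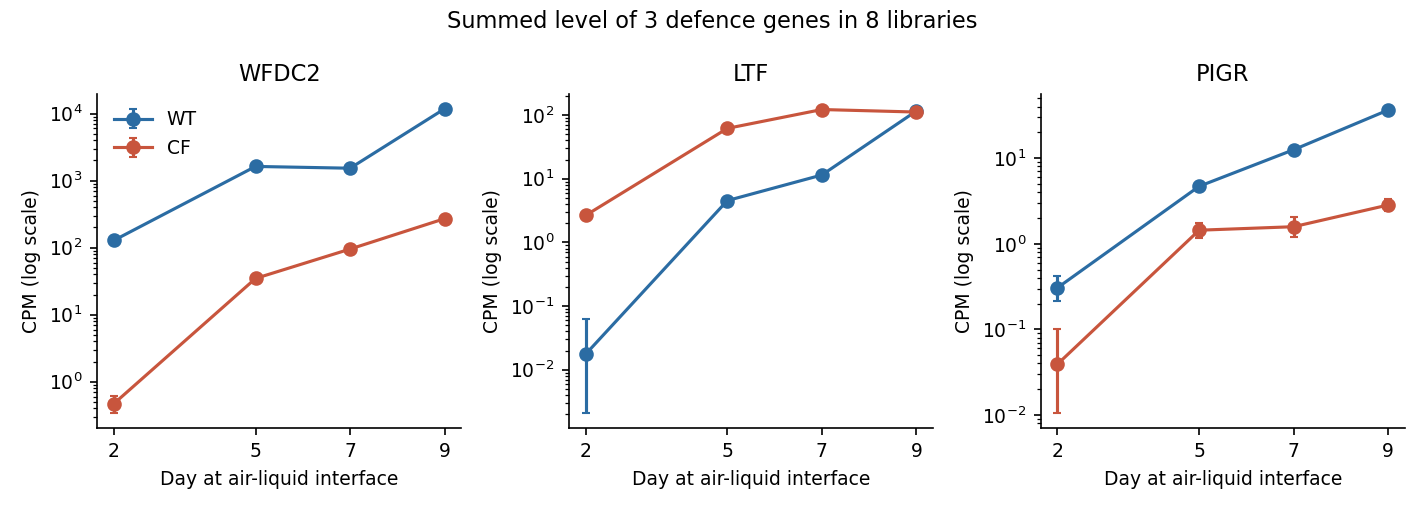
CPM of summed UMIs on a log axis against the day at ALI, for WT (blue) and CF (red), with 1 library per point and exact 95% counting intervals as bars. WFDC2 and PIGR lie lower in CF on all 4 days, while the LTF curves start apart and meet at day 9, at 116 CPM in WT and 112 CPM in CF.

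Ordered by level, neighbouring libraries were mostly farther apart than their counting intervals. The exceptions for LTF were WT day 9 (114 to 119 CPM) and CF day 9 (109 to 115 CPM), and those for PIGR were CF day 5 (1.18 to 1.75 CPM) and CF day 7 (1.19 to 2.06 CPM). How far cultures of 1 genotype differ on a given day was not measured.

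A change of at least 1 on the log2(CPM + 1) scale, called 2-fold below, was used in place of a test. The background was formed by 7712 genes with a mean of at least 10 CPM over the 8 libraries. PIGR, with a mean of 7.50 CPM, falls under that limit and is counted with the members only. The added 1 CPM shrinks differences at low levels. PIGR at day 2, 7.81-fold lower in CF, thus stood at -0.33 and did not pass. LTF at day 2 stood at 1.84, for a ratio of 152. At day 2, LTF was at least 2-fold higher in CF, as were 4.23% of all genes, and WFDC2 was at least 2-fold lower, as were 2.74%. With 5 CPM added in place of 1, LTF did not pass at day 2 (0.61) and PIGR did not at day 5 (-0.59). At day 5, LTF was higher beside a background of 1.84%, and WFDC2 and PIGR were lower beside 3.1%. At day 7, the same genes passed in the same directions, beside 3.89% of genes higher and 2.35% lower. At day 9, WFDC2 and PIGR were lower beside 2.83% of all genes, and none of the 3 was at least 2-fold higher, where 2.71% of all genes were. The median difference over all genes was at most 0.13 on the log2 scale at any day, the value at day 7.

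From day 2 to day 9, all 3 genes rose at least 2-fold in WT, where 8.86% of all genes did, and all 3 rose in CF, where 5.55% did, although with 5 CPM added in place of 1 the rise of PIGR in CF was 0.64 on the log2 scale and did not pass. In WT the log2 rises were 6.52 for WFDC2, 6.85 for LTF and 4.85 for PIGR. In CF they were 7.53, 4.95 and 1.89. None of the 3 fell, where 4.72% of all genes did in WT and 2.52% in CF. In a list of goblet and airway-type secretory genes, 6 had a mean of at least 10 CPM. Of these, 6 rose at least 2-fold in WT and 4 in CF, with median log2 rises of 6.87 and 3.47. The 1 CPM added before the log2 weighs on the low day 2 levels, so the ratios of day 9 to day 2 are given as well. For WFDC2 the ratio was 92.2 in WT (90.7 to 93.7) and 578 in CF (435 to 784). For LTF it was 6661 in WT (1843 to 55009.8), which rests on the 2 UMIs of day 2, and 42.1 in CF (37.3 to 47.8). For PIGR it was 120 in WT (85.9 to 172) and 72.6 in CF (27.8 to 270), and these intervals overlap. Between day 5 and day 7, WFDC2 changed by -0.09 in WT and by 1.43 in CF. These sums cannot tell fewer cells that make a transcript from less transcript in each cell, so shares of cells were counted next.

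Cells under 3000 UMIs were left out of the shares, and every other cell was thinned to 3000 UMIs. This left 1196 of 1607 CF cells at day 7 and 2265 of 2489 at day 9. In WT it left 4561 of 4634 and 5280 of 5416 cells. Of the thinned cells, 67.1% in WT at day 9 (65.8 to 68.3) had a WFDC2 UMI, against 9.36% in CF (8.19 to 10.6). The WT shares on the earlier days were 7.63%, 23.5% and 26.5%, and the CF shares 0.135%, 3.84% and 6.02%. Without thinning the day 9 shares were 95% in WT and 17.1% in CF. RNA free in the droplets can give such UMIs, and a level for it was read from the cluster with the least of the gene in the same library. At day 9 that cluster was WT cluster 2, where 42.7% of thinned cells had a WFDC2 UMI at a level of 206 CPM, which was 1.74% of the library's level, with 14731 UMIs in its median cell. In CF at day 9 the lowest was cluster 11, with 1.13% of cells and 2.97 CPM, at a median of 21887 UMIs. Much of the WT share at day 9 therefore lay at the level of the lowest cluster, and the level per cell separates the cells more clearly.

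Among WT cells of at least 3000 UMIs at day 9, 41.9% (40.6 to 43.3) reached 1000 CPM of WFDC2 and 30.4% reached 10000 CPM, and the cells over 1000 CPM held 99% of the gene's UMIs. Only 6.95% of the cells lay between 500 and 2000 CPM. In CF at day 9, 3.44% of cells (2.73 to 4.28) reached 1000 CPM and held 89.1% of the UMIs, with 13 of 2265 cells at 10000 CPM or more. On day 2, 5 and 7, 2.93%, 11.98% and 13.5% of WT cells were over 1000 CPM. In CF it was 0 of 4460 cells at day 2 (which allows up to 0.0673%), 0.518% at day 5 and 1.67% at day 7.

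LTF was found in a minority of cells in both genotypes. After thinning, the CF shares were 0.516%, 7.50%, 11.2% and 11.7% at day 2, 5, 7 and 9, and the WT shares were 0%, 0.638%, 2.13% and 8.86%. The CF share was higher on all 4 days, including day 9, where the summed levels were close (11.7%, 10.4 to 13.1, against 8.86%, 8.11 to 9.66). Cells over 1000 CPM of LTF made up 2.80% of WT and 2.16% of CF cells at day 9 and held 70.2% and 45.9% of its UMIs. The level at day 9 was thus carried by fewer and higher cells in WT than in CF. In the lowest clusters the shares were 2.93% in WT cluster 23 and 0 of 266 cells in CF cluster 11, which allows up to 1.13%.

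PIGR had a UMI in 9.28% of thinned WT cells at day 9 (8.51 to 10.1) and in 0.618% of CF cells (0.338 to 1.03). The lowest WT cluster had none in 205 cells, which allows up to 1.46%. No CF cell of at least 3000 UMIs reached 1000 CPM of PIGR on any day, while 18 of 5280 WT cells did at day 9.

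**Figure D2:**
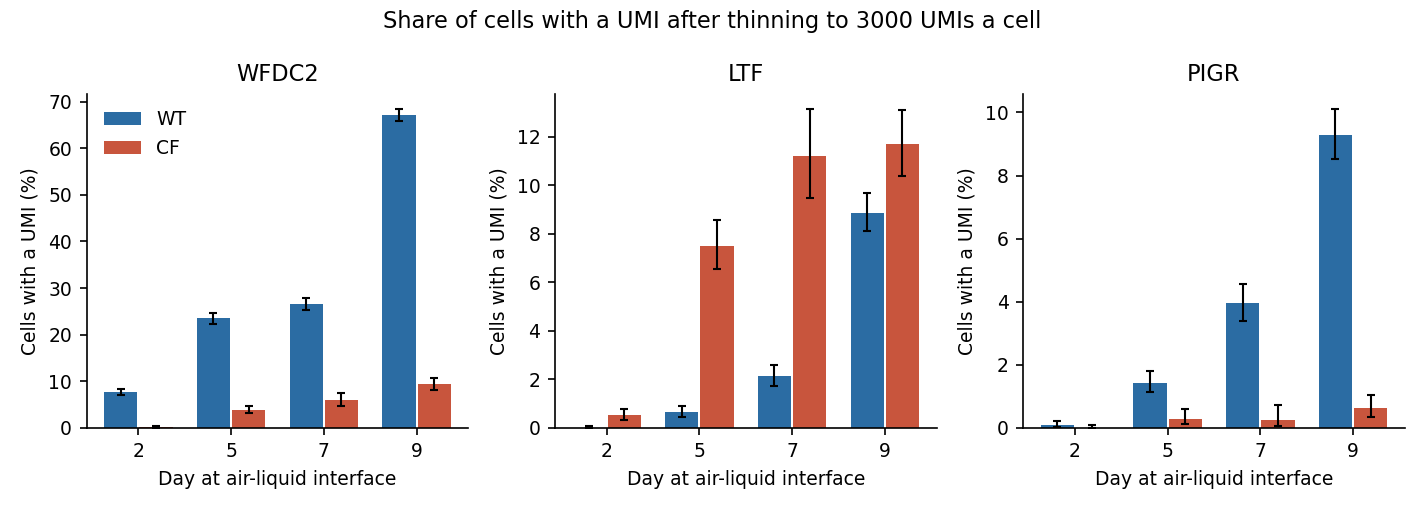
Percent of cells with at least 1 UMI of each gene, among cells of at least 3000 UMIs thinned to that number, by day at ALI, for WT (blue) and CF (red), with exact 95% binomial intervals. The LTF share is higher in CF on all 4 days, and the WFDC2 and PIGR shares are higher in WT on all 4. For PIGR at day 2 this rests on 6 WT cells and 0 CF cells, and the intervals overlap (0.0358 to 0.212% in WT and 0 to 0.0827% in CF).

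The deposited clusters, which the authors had made separately in each genotype, show where the transcripts lay. Since these genes took part in the clustering, the values are descriptions. In WT at day 9, WFDC2 fell into a low and a high group of clusters. Of 18 clusters with at least 50 cells, 8 stood between 206 and 571 CPM and 10 between 3866 and 28765 CPM. The 10 high clusters held 54.9% of the cells and 96.3% of the WFDC2 UMIs, and all were deposited as centroacinar or centroacinar progenitor and had at least 10 CPM of SOX2. The 8 low clusters comprised 4 with under 10 CPM of SOX2, at 213 to 571 CPM of WFDC2, and 4 ductal clusters with more SOX2, at 206 to 542 CPM. The highest single values at day 9 were 28765 CPM in centroacinar cluster 7, 28390 CPM in progenitor cluster 10 and 24075 CPM in progenitor cluster 21.

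Over all days, WT clusters 3 (centroacinar, 21083 CPM) and 21 (progenitor, 20758 CPM) were highest in WFDC2, and ductal cluster 19, mostly of day 2, was lowest at 4.02 CPM. In CF the order was led by centroacinar cluster 7 at 670 CPM (657 to 683), with 51.1% of the WFDC2 UMIs of CF in 4.35% of its cells, then progenitor cluster 18 at 264 CPM (254 to 274). The lowest, ductal cluster 22, was at 0.183 CPM. This order follows the days, since 473 of the 493 cells of cluster 7 were of day 9 and 215 of the 218 cells of cluster 22 of day 2. At day 7 the highest CF cluster was ductal cluster 12, with 463 CPM in 50 cells. The highest CF cluster therefore lay below 11 of the 39 WT clusters, and the SOX2-high WT clusters ranged from 12.3 to 21083 CPM around a median of 259.

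LTF lay elsewhere in WT. At day 9 it was at 891 CPM in ductal cluster 17, at 455 CPM in centroacinar cluster 30 and at 284 CPM in cluster 29, and between 4.15 and 63.2 CPM in the other 15 clusters. These 3 clusters held 12.3% of the WT cells and 78.8% of the LTF UMIs, and cluster 17 alone held 58.6% of the UMIs in 7.50% of the cells. Clusters 17 and 30 had 1.91 and 3.30 CPM of SOX2, and in them WFDC2 was among the low values at day 9, at 511 and 301 CPM. Cluster 29, with 82.3 CPM of SOX2, was the only one of these 18 with over 100 CPM of LTF and over 1000 CPM of WFDC2 (12031 CPM), and the 33 cells of ductal cluster 33, under the size limit, were at 398 and 1272 CPM. Cluster 17 already led at day 7 with 181 CPM, and at day 5 its 30 cells, fewer than the 50 asked of a cluster, were at 353 CPM (306 to 406) and held 42.9% of the WT LTF UMIs of that day in 0.563% of the cells.

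In CF, LTF was highest in progenitor clusters among those of at least 50 cells. Over all days, progenitor cluster 17, whose leading genes include the mucins MUC5AC and MUC5B, was at 357 CPM (345 to 369). Cluster 21 followed at 296 CPM (241 to 359), a cluster with a median of 1044 UMIs per cell whose deposited class name was not kept, since it had few UMIs and no marker of that class among its 10 leading genes. Cluster 19, deposited as ductal but led by SPINK1, TFF3 and TFF2, was at 264 CPM. At day 2, when CF held 2.65 CPM of LTF, progenitor cluster 4 was at 9.78 CPM and every other cluster at 2.77 CPM or less. At day 5 clusters 17, 25 and 18, all deposited as progenitors, stood at 235, 176 and 166 CPM. At day 7 cluster 17 reached 630 CPM in 56 cells, and at day 9 its 39 cells, under the 50 asked of a cluster, were at 676 CPM (623 to 734) and held 10.4% of the LTF UMIs. Among clusters of at least 50 cells at day 9, progenitor cluster 18 was highest at 260 CPM, and the larger cluster 7, at 205 CPM, held 52.1% of the LTF UMIs. No CF cluster of at least 50 cells exceeded the 653 CPM of WT cluster 17 over all days. Ductal CF cluster 29, with 47 cells, was at 729 CPM. These pooled values mix days, since 406 of the 603 cells of WT cluster 17 were of day 9 and 254 of the 349 of CF cluster 17 of day 5. At day 7, WT cluster 17 was at 181 CPM and CF cluster 17 at 630 CPM. At day 5, the 30 cells of WT cluster 17 were at 353 CPM and CF cluster 17 at 235 CPM.

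At day 9 in CF the same 4 of the 11 clusters of at least 50 cells, 7, 18, 19 and 21, were over 100 CPM in WFDC2 and in LTF, although cluster 21 passed for LTF on 9 UMIs (103 CPM, 47.0 to 195). The 39 cells of cluster 17 did not follow, with 676 CPM of LTF and 22.1 CPM of WFDC2. The 4 clusters held 36.6% of the CF cells, 94.8% of the WFDC2 UMIs and 84.4% of the LTF UMIs. In the other 7 clusters WFDC2 was at 2.97 to 25.2 CPM and LTF at 1.32 to 58.8 CPM. Within single thinned cells of that library, 27.8% of the cells with a WFDC2 UMI had an LTF UMI, against 10.0% of the cells without. In WT at day 9 the corresponding shares were 8.81% and 8.97%, but there a WFDC2 UMI was found in 42.7% of cells even of the lowest cluster, so these shares do not show whether the genes went together.

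**Figure D3:**
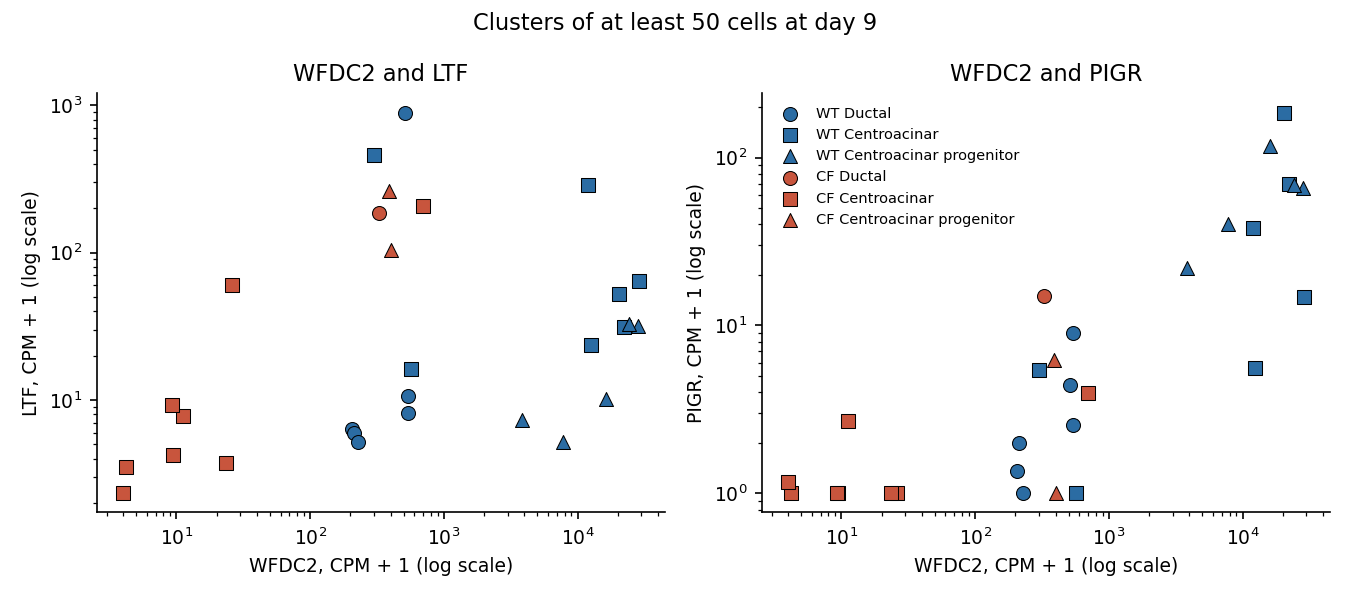
CPM + 1 of WFDC2 against LTF (left) and PIGR (right) on log axes, 1 point per cluster of at least 50 cells at day 9, for WT (blue) and CF (red), with the marker shape giving the deposited class. WT clusters high in LTF stand apart from those highest in WFDC2 except cluster 29, while in CF the 4 plotted clusters over 100 CPM are the same for both genes (cluster 17, with 39 cells, is not plotted), and PIGR reaches 184 CPM in WT and 14.0 CPM in CF.

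PIGR followed WFDC2 across WT clusters. It was highest over all days in centroacinar cluster 16, at 154 CPM (145 to 164), and next in progenitor cluster 18, at 70.4 CPM, and it was listed with 0 UMIs in the lowest. At day 9 the 10 SOX2-high centroacinar and progenitor clusters ranged from 4.61 to 184 CPM and held 97.0% of the PIGR UMIs, and the 6 ductal clusters ranged from 0 to 7.96 CPM. The 2 genes were not graded alike among the high clusters, since cluster 7, the highest in WFDC2 at that day, had 13.7 CPM of PIGR. In CF the highest were cluster 19 at 10.6 CPM (8.61 to 13.0) and progenitor cluster 25 at 7.18 CPM (5.45 to 9.28), and 8 WT clusters stood above the highest CF cluster. Among thinned WT cells at day 9, 12.3% of those with a WFDC2 UMI had a PIGR UMI, against 3.16% of those without. Since 42.7% of cells even of the lowest WT cluster had a WFDC2 UMI, these shares do not show whether the genes went together in single cells.

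**Figure D4:**
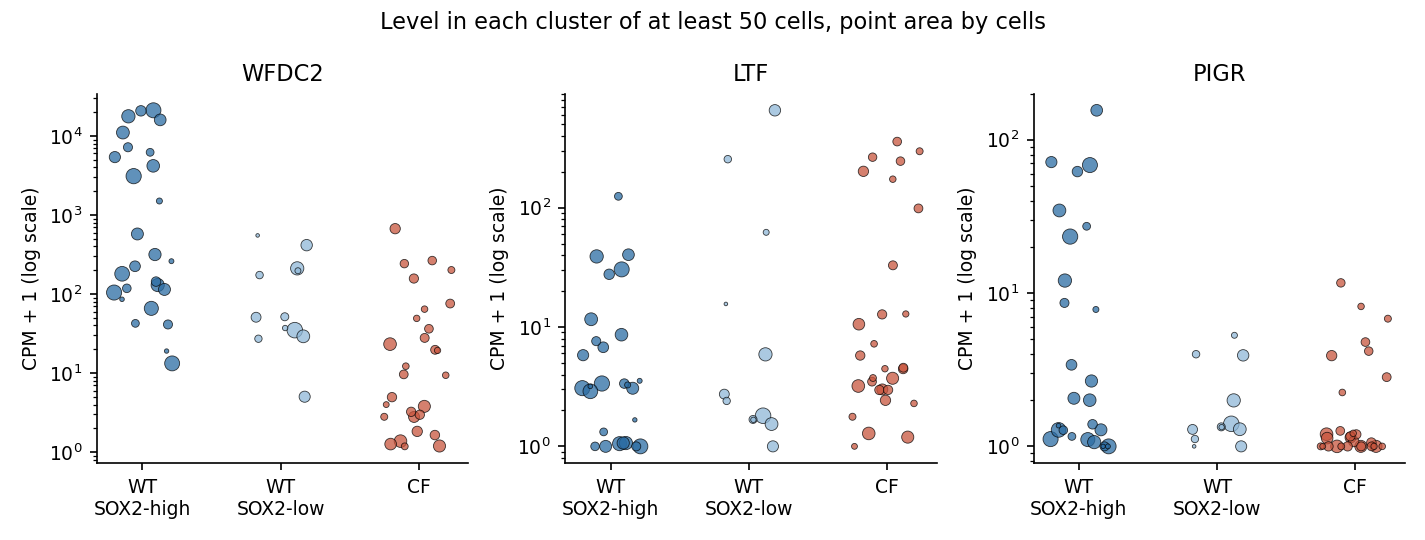
CPM + 1 of each gene on a log axis in every deposited cluster of at least 50 cells, pooled over days, with point area proportional to the number of cells. WT clusters are split by whether they hold at least 10 CPM of SOX2. The highest WFDC2 and PIGR values lie in SOX2-high WT clusters, at 21083 and 154 CPM, and the highest LTF value, 653 CPM, in a SOX2-low WT cluster.

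The split of the WT clusters by SOX2 was known from earlier results of these data. The 12 SOX2-low WT clusters (under 10 CPM) had 1510 cells at day 9, at 318 CPM of WFDC2, 290 CPM of LTF and 2.52 CPM of PIGR. The 29 SOX2-high clusters had 3906 cells, at 16849, 40.1 and 51.5 CPM. For LTF the SOX2-low and SOX2-high WT cells held 5.30 and 3.89 CPM at day 5, most of the former in the 30 cells of cluster 17, and 24.2 and 4.71 CPM at day 7.

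CF cells, among whose clusters SOX2 reached at most 1.08 CPM, were set beside the SOX2-low WT cells alone. For WFDC2 the log2 difference of CF minus these WT cells was then -1.39 at day 2, -0.47 at day 5, 1.31 at day 7 and -0.23 at day 9, in place of -6.46, -5.51, -3.99 and -5.44 against all WT cells. For PIGR it was 0.06, 1.01, 0.49 and 0.13, in place of -0.33, -1.22, -2.39 and -3.29, with 0, 10, 24 and 65 UMIs of it in the SOX2-low cells. At day 2 the 0 UMIs allow up to 0.251 CPM, above the 0.0391 CPM of CF, so no direction can be given. The separate intervals of the levels overlap at day 7 (0.537 to 1.25 CPM in these cells and 1.19 to 2.06 CPM in CF) and at day 9 (1.94 to 3.21 and 2.39 to 3.35 CPM). Such overlap does not by itself place a difference within counting error, and no interval of the ratio was taken here. For LTF it was 1.87, 3.32, 2.29 and -1.37, in place of 1.84, 3.50, 3.31 and -0.06. In WFDC2 the SOX2-low WT cells stood not far above the lowest cluster of their library. They were at 2.86, 48.5, 37.8 and 318 CPM at day 2, 5, 7 and 9, against 1.40, 28.5, 21.2 and 206 CPM. The lowest CF clusters were at 0, 1.69, 0.507 and 2.97 CPM. These levels were not subtracted here, so the direction of the WFDC2 difference at day 5 and day 9 is not settled. The part of free RNA was not tested.

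**Figure D5:**
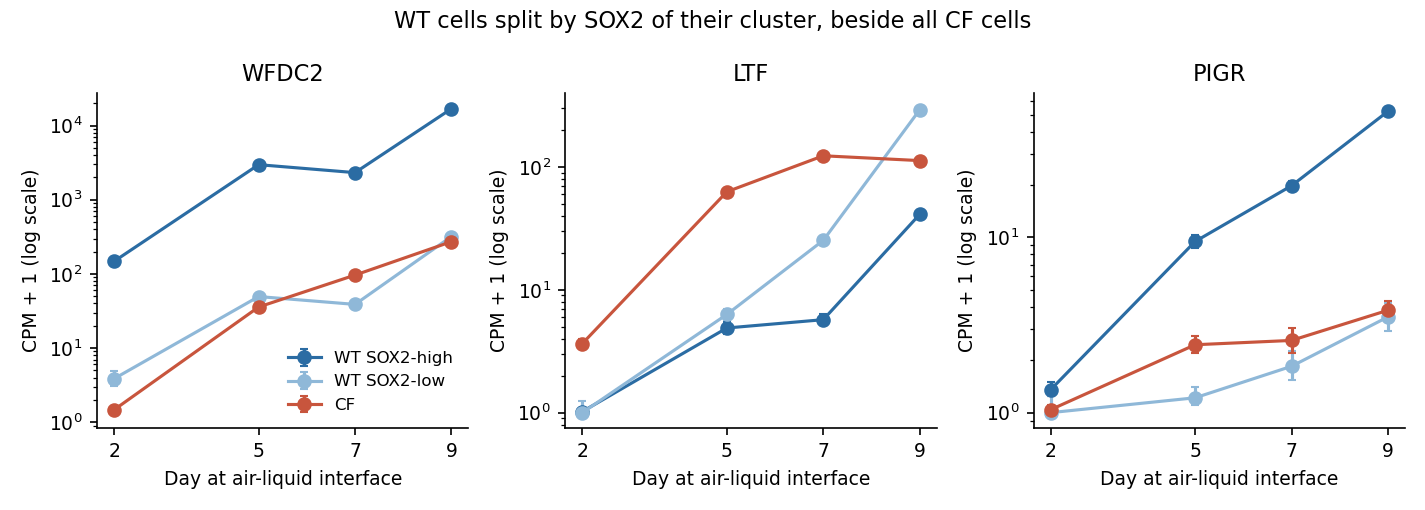
CPM + 1 on a log axis by day at ALI for WT cells in SOX2-high clusters (dark blue), WT cells in SOX2-low clusters (light blue) and all CF cells (red), with exact 95% counting intervals. At day 9 CF lies near the SOX2-low WT cells for WFDC2 (271 against 318 CPM) and PIGR (2.84 against 2.52 CPM). The lowest WT cluster of that day held 206 CPM of WFDC2, which is not subtracted. On earlier days they differ (WFDC2 at 95.3 against 37.8 CPM at day 7, PIGR at 1.44 against 0.216 CPM at day 5). For LTF, CF lies above both WT groups until day 7 and below the SOX2-low cells at day 9.

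Deposited classes were compared with caution. Of 71 clusters, 6 were set aside because their 10 leading genes held more markers of another deposited class than of their own, and 7 because they had few UMIs and no marker of their own. Of the 58 left, 44 had no marker of their own among the 10 either. CF cluster 11, deposited as centroacinar, had 2 genes of the fibroblast list, COL1A1 and COL1A2, among its 10 leading genes, beside ACTA2, TAGLN and FN1. No marker of their own was among the 10 in 15 of 16 centroacinar and 22 of 26 ductal clusters of the 58. Centroacinar and ductal cells are therefore not compared. Of the 11 such clusters deposited as centroacinar progenitors, 5 had no marker of that class. In progenitors at day 9, mostly WT clusters 21 (with no progenitor marker among its leading genes), 10 and 18 and CF clusters 18 and 17, WFDC2 was at 21884 CPM in WT and 310 CPM in CF, LTF at 41.6 and 347 CPM (37.99 to 45.4 and 330 to 366), and PIGR at 65.1 and 5.27 CPM. The CF value of LTF joins 260 CPM in 139 cells of cluster 18 and 676 CPM in 39 cells of cluster 17. The WT value lies above those of WT clusters 21, 10 and 18, at 31.8, 30.6 and 9.20 CPM. It also takes in smaller clusters such as WT cluster 40, at 133 CPM in 29 cells over all days. LTF in cells of that name was also higher in CF at day 5, at 194 CPM (CF clusters 17 and 25) against 5.51 CPM (WT clusters 10 and 18), and at day 7, at 352 CPM (CF clusters 18 and 17) against 3.91 CPM (WT clusters 18, 10 and 24).

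The closeness of LTF between genotypes at day 9 depended on which cells were counted. With equal weight for each class the log2 difference of CF minus WT was 0.97 in place of -0.06, and over cells with at most 10% mitochondrial UMIs it was 1.08. At day 9, 53.0% of WT and 24.1% of CF cells exceeded 10%, and the median was 14.2% in WT cluster 17 and 13.7% in cluster 30. Barcodes that the authors had not retained had more LTF than the retained cells in 6 of 8 libraries, among them WT at day 5 (15.1 against 4.54 CPM), day 7 (25.7 against 11.5 CPM) and day 9 (279 against 116 CPM) and CF at day 9 (188 against 112 CPM). They had less in CF at day 2 (0.824 against 2.65 CPM) and day 5 (58.8 against 61.8 CPM).

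Neutrophils are another known source of LTF. The 3 of 8 listed neutrophil genes that were measured, MPO, MMP8 and CSF3R, summed to at most 0.0420 CPM in any library, with ELANE, PRTN3, CTSG, AZU1 and CAMP absent from the symbols. PTPRC, the general leukocyte marker, was at most 0.0198 CPM, and the leukocyte list summed to 4.12 to 10.8 CPM in WT and 4.49 to 21.1 CPM in CF, most of it CD68, with CSF1R at 0. JCHAIN, which links the immunoglobulins that PIGR carries, was at 0.128 to 0.240 CPM. The plasma cell list summed to 68.4 to 90.3 CPM in WT and 80.9 to 135 CPM in CF, nearly all of it SDC1, which epithelia also make. The endocrine list summed to at most 0.126 CPM, with INS and GCG at 0, the endothelial list to at most 0.259, the ciliated list to at most 1.62 and the fibroblast list to 2.30 to 5.79 CPM in WT and 1.53 to 29.97 CPM in CF. The highest fibroblast sum was that of CF day 7, where COL1A1 was at 18.9 CPM, and its part in the values above was not tested. MKI67, a marker of cycling cells, went from 28.5 to 0.330 CPM in WT and from 12.1 to 0.320 CPM in CF between day 2 and day 9.

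Genes whose levels followed each member were ranked by the smaller of the Pearson correlations over 39 WT and 29 CF clusters, on the log2(CPM + 1) scale. Clusters share libraries and days and were built from the same genes, so the values describe these clusters only. WFDC2 was followed by LOC101693310 (r = 0.92 in WT and 0.83 in CF), CCZ1 (0.79 and 0.80) and TNFRSF11A (0.94 and 0.79), the last of which encodes the receptor of RANKL. LTF was followed by the trefoil factor TFF1 (0.89 and 0.88), the complement regulator CD46 (0.88 and 0.91) and the trefoil factor TFF2 (0.86 and 0.91). In WT cluster 17, TFF1 and TFF2 were at 973 and 2712 CPM, but CF cluster 17, the highest in LTF of the 29, had 2.45 and 10.7 CPM of them. PIGR was followed by the mucin MUC5B (0.88 and 0.89), PROM1 (0.87 and 0.86) and LOC101690256 (0.91 and 0.85). By Spearman's rho the first 3 were CCZ1, CETN3 and ATP7A for WFDC2, CD46, ITCH and B4GALT4 for LTF, and TFF3, CLYBL and MLLT3 for PIGR, so that CCZ1 and CD46 alone were among the first 3 by both measures and none was for PIGR.

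FCMR, which encodes a receptor for IgM and stands next to PIGR in the RefSeq gene table of assembly ASM1176430v1.1, was in the 6th place for PIGR (0.92 and 0.82) and was chosen here after its values were seen. It was at 2.07, 20.2, 16.7 and 73.1 CPM in WT and at 0.547, 2.74, 3.25 and 6.28 CPM in CF at day 2, 5, 7 and 9. Among the members, WFDC2 and PIGR had r = 0.87 in WT and 0.73 in CF, WFDC2 and LTF 0.58 and 0.81, and LTF and PIGR 0.57 and 0.88. The mean day of a cluster's cells had r = 0.56, 0.66 and 0.51 with WFDC2, LTF and PIGR in WT and 0.65, 0.53 and 0.46 in CF, and the median percent of mitochondrial UMIs had r = 0.49, 0.56 and 0.62 in WT and 0.17, 0.19 and 0.21 in CF.

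Other defence genes were counted from lists in the same way, over genes with a mean of at least 10 CPM. Of 7 other secreted antimicrobial genes, 1 was at least 2-fold higher and 3 lower in CF at day 2, 2 and 0 at day 5, 1 and 4 at day 7, and 1 and 3 at day 9. The median log2 difference was 0.15, 0.20, -1.20 and -0.48, beside 0.02, -0.04, 0.13 and 0.09 over all genes. Of all genes, 4.23% were higher and 2.74% lower at day 2, 1.84% and 3.1% at day 5, 3.89% and 2.35% at day 7, and 2.71% and 2.83% at day 9, and these shares and medians stand beside the counts of each list that follows. With 2 to 14 genes in a list, 1 gene is a larger share than any of them. CST6, a cysteine protease inhibitor, was higher in CF on every day, at 77.0 to 104 CPM against 7.27 to 19.9 CPM. RNASE4, a secreted ribonuclease, was at 77.5 to 96.9 CPM in CF and 42.6 to 54.8 CPM in WT. CXCL17, a mucosal chemokine, climbed in WT from 105 to 741 CPM between day 2 and day 9, while CF held 207 CPM at day 2 and 260 CPM at day 9. S100A9, a subunit of calprotectin, started at 424 CPM in WT and 102 CPM in CF at day 2 and was at 20.1 and 17.5 CPM at day 9. The chemokine CCL20 had a mean log2 difference of -1.998 and the elastase inhibitor PI3 one of -0.97, with PI3 at 22.6 and 8.42 CPM at day 9.

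The WAP domain family had 2 genes over the limit, PI3 and WFIKKN1 (mean log2 difference of -0.48), and PI3 was at least 2-fold lower in CF at day 2, 7 and 9. WFDC3 was at 2.10 to 5.44 CPM, WFDC1 at most 1.01 CPM and WFDC5 at most 0.0391 CPM. Of 6 complement genes and opsonins, 2, 1, 2 and 1 were at least 2-fold higher in CF and 2, 2, 3 and 3 lower at day 2, 5, 7 and 9, with medians of -0.39, -0.82, -0.49 and -1.07. The complement inhibitor CD55 (mean log2 difference of 2.49) and the secreted chaperone CLU (0.72) had the largest positive mean differences, and complement component C2 (-3.43) and the lung collectin SFTPD (-2.75) the most negative ones.

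For lactoferrin's substrate, 6 genes of iron handling were counted, of which 2, 1, 2 and 1 were at least 2-fold higher in CF and 0 lower at day 2, 5, 7 and 9, with medians of 0.74, 0.48, 0.46 and 0.44. The mean log2 difference was 1.20 for the transferrin receptor TFRC, 1.23 for the scavenger receptor LRP1 and -0.06 for the ferritin chain FTH1. For immunoglobulin transport, 7 listed genes were counted, with 0 higher, and 0 lower at day 2 and 1 at each later day. That gene was FCGRT, the neonatal Fc receptor of IgG (mean of -1.03), which is not part of PIGR's route. The trafficking genes MAL2, YES1 and RAB25 had means of -0.64, 0.21 and 0.07. The median of the list was 0.05, -0.09 and -0.09 at day 2, 5 and 7 and -0.24 at day 9, where PIGR itself was at -3.29.

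Of 14 genes of the NF-kB and IL-17 response, which is known to induce defence genes in epithelia, 1 was at least 2-fold higher in CF on each day and 4, 4, 5 and 4 were lower. The medians were -0.47, -0.42, -0.86 and -0.83. ICAM1, an adhesion molecule, was at 334 CPM in WT and 6.96 CPM in CF at day 9 (mean log2 difference of -4.86), and CSF3, the granulocyte growth factor, had a mean of -3.23. The response regulators NFKBIZ, NFKBIA and CEBPD had means of -1.09, -0.89 and -1.64. IL1R1, the interleukin-1 receptor, had 1.57, BIRC3 0.71, STAT3 0.32 and SOD2 -0.56. Of 5 genes of the interferon axis, 1 was higher at day 2, 0 later, and 1 was lower at day 7 and at day 9, IFNGR2 (mean of -0.999), with list medians of 0.66, 0.37, 0.24 and -0.07. IFNGR1 had 0.69 and IRF1, a known activator of PIGR, 0.64. Among 8 secretory and epithelial transcription factors, 1 was lower on every day, SOX2 (-6.36), and 1 was higher at day 2, FOXA2 (1.496 at that day), with list medians of -0.17, 0.07, -0.23 and -0.36. KLF5 had a mean of -0.38 and GRHL2 0.13.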

How the data were processed

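Single-cell libraries of ferret PDE cultures had been sequenced on the 10x Genomics platform. The authors made the deposited UMI counts with Cell Ranger 5.0.1 on assembly ASM1176430v1.1 with an improved ferret annotation described shortly before. In Seurat on R 4.1.2 they filtered cells by genes and mitochondrial share, removed doublets with DoubletFinder, clustered WT and CF separately and named classes from references. Their deposited cell table gave each cell's cluster, class and percent of mitochondrial UMIs. It was used for the 32945 retained of 44243 barcodes. The deposited log-normalized values and pseudotime were not used, and no doublet caller was rerun.

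UMIs were summed per library, class or cluster and divided by their total to give CPM. Differences were taken on log2(CPM + 1). Intervals were exact Poisson, Clopper-Pearson or conditional binomial, at 95%. Clusters needed 50 cells. A WT cluster with under 10 CPM of SOX2 was called SOX2-low. Cells of at least 3000 UMIs were thinned to 3000 for shares, and the others were left out. The limit given for a count of 0 was 3 counts, a rule apart from the exact intervals. Printed intervals, and the limit of 0.251 CPM for PIGR in SOX2-low cells, used the exact upper end. Groups came from the sample titles, each of 1 library, and the fold recovery was tested on simulated data. Besides the members, the text names the 3 genes most like each and the 2 largest mean rises and falls of each list other than those of cell types. It also names every gene of at least 50 CPM in the antimicrobial, WAP and NF-kB lists, and the 2 highest and the lowest clusters. Clusters of a single day and a few further genes were chosen after their values were seen. The members and lists were chosen with earlier results of these data known. Alternatives used TMM (edgeR 4.0.16) and DESeq2 1.42.0 factors, other pseudocounts, cells and weights. Calculations used Python 3.11.15, numpy 2.4.6, scipy 1.17.1, pandas 2.3.3 and R 4.3.3.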

Additional observations from a re-analysis of the deposited data

Results flagged for a closer look

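Some members moved in opposite directions in WT and CF over the same days, each between 1 library and another, and the difference was not tested. WFDC2 changed from day 5 to day 7 by -0.089 on the log2(CPM + 1) scale in WT and by 1.43 in CF. LTF changed from day 7 to day 9 by 3.24 in WT and by -0.13 in CF.

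The CF minus WT difference of LTF also changed direction between days. In the main setting the difference was 1.84 at day 2, 3.50 at day 5, 3.31 at day 7 and -0.058 at day 9. The 1 CPM added before the log2 shrinks the value of day 2, where the ratio of CF to WT was 152.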

How the results depend on the processing

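No paired analysis was possible because no groups shared more than 1 replicate number, each genotype and day having 1 library, and no library could be left out within a day. A fit with day as a block, which would take days as replicates of a genotype, was not made. Apart from the SOX2-low comparison, 160 of 162 recomputed log2 differences of the members kept their direction. The exceptions were LTF at day 9, at 0.97 with equal weight of classes and 1.08 in cells with at most 10% mitochondrial UMIs, where 1 member was higher in CF in place of 0, and in the second also 1 at least 2-fold higher in place of 0. With a pseudocount of 5 CPM, 0 members were at least 2-fold higher at day 2, 1 was lower at day 5, and 2 in place of 3 rose from day 2 to day 9 in CF, without PIGR (0.64). With the SOX2-low WT cells alone, 2, 2, 3 and 1 members were higher in CF at day 2, 5, 7 and 9. There, 2 were at least 2-fold higher at day 5 and at day 7, and 0, 0 and 1 at least 2-fold lower at day 5, 7 and 9. WFDC2 reversed at day 7 (1.31). PIGR changed sign at day 2, 5, 7 and 9 (0.055, 1.01, 0.49 and 0.13). Its value of day 2, counted above as higher, rests on 0 WT UMIs and gives no direction. The separate intervals of the levels at day 7 and 9 overlap, and no interval of the ratio was taken. The causes of these shifts were not tested. Restricting sums to cells of at least 3000 UMIs, or subtracting the lowest cluster of each library, was added after seeing the data, and all 18 differences stayed within their counting intervals in both. The level subtracted was at most 4.87% of that of its library, so the differences could hardly move. It was not subtracted from the SOX2-low WT cells. With every cluster under its deposited name, also added, 34 of 36 class differences kept their direction. The 2 that turned from the opposite sign were ductal and not reported above. That of LTF at day 9 went to 0.0038 and that of PIGR at day 7 to 1.54. Spearman correlations in place of Pearson were 0.71 in WT and 0.75 in CF for WFDC2 and LTF, 0.78 and 0.67 for WFDC2 and PIGR, and 0.68 and 0.67 for LTF and PIGR. Days with a higher share of cells in CF stayed at 0 for WFDC2 and PIGR and 4 for LTF without thinning and at 1000 UMIs.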
